A study of Mus musculus with 30 samples.

Results

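Ribosome-bound RNA of D1 and D2 medium spiny neurons was compared in female mice labelled Susceptible after social stress, in 10 of the 30 libraries of the series. The comparison took the 5 libraries labelled D1 Susceptible and the 5 labelled D2 Susceptible, chosen by their labels alone. D1-Cre-RT mice express Cre recombinase in cells that use the Drd1 promoter, and A2A-Cre-RT mice in cells that use the promoter of the adenosine receptor gene Adora2a, which is active in the D2 class. RT stands for RiboTag, an allele with which Cre switches a ribosomal protein to a form with an HA tag, so that ribosomes and the RNA on them can be pulled out of a tissue with an antibody. All 6 groups of the series, the unstressed controls included, carried this allele and a Cre driver. The Susceptible mice had undergone CWDS, chronic witness defeat stress, a procedure in which a female watches another mouse being attacked, and were grouped by their scores in a test of social interaction. Control mice (unstressed) and Resilient mice (stressed, but placed in the other outcome group) gave 5 D1 and 5 D2 libraries each. Every library pooled 4 mice from 14-gauge punches of the nucleus accumbens, collected 24 h after that test. Mice of 1 pool had similar social interaction ratios. Age was not among the labels used here. In pooled tissue, fewer cells of a type and less RNA per cell cannot be told apart.

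The nucleus accumbens is built mostly from the 2 classes of medium spiny neuron, GABA-releasing cells that receive dopamine. D1 cells couple dopamine through the D1 receptor to a rise in cAMP, and they make dynorphin and substance P. D2 cells couple it through the D2 receptor to a fall in cAMP, carry the adenosine A2A receptor, and make enkephalin. The remaining neurons are interneurons (somatostatin and neuropeptide Y cells, parvalbumin cells, cholinergic cells and others), among glia and blood vessels, from which a pull-down can carry some RNA along.

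The 10 libraries held 28996168 to 65834869 counts in genes, and 3 of them stood apart from the rest. In D1 replicate 1, 54.9% of the gene counts fell in Gm42418, a gene model that overlaps ribosomal RNA sequence, against 0.384% to 5.46% in the other 9, and 41.2% of its reads fell in no gene. D1 replicate 5 held the 5.46%, with 9.03% of its reads in no gene, and is not among these 3. D2 replicates 1 and 2 had a count in 15822 and 16525 genes, against 19440 to 22064 in the other 8. Of the 19368 genes tested, 4313 and 3788 had no count in these 2 libraries, and no other of the 10 had more than 1744. The same 2 libraries held keratin RNA and, although the mice are labelled female, reads of the Y-linked gene Ddx3y, at 5.73 and 1.01 CPM, while it had no count in the other 8. Results are therefore given with all 10 libraries and again without these 3, which left 4 D1 against 3 D2 libraries. Levels below are CPM, counts scaled to the same total in each library, with library sizes adjusted by TMM. Differences are log2 D1 minus D2 from edgeR's quasi-likelihood test, positive where D1 is higher, with their standard error (SE) and its p after Benjamini-Hochberg adjustment across the genes tested. A gene is called where that p is under 0.05.

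The 6 marker genes of the classes separated the libraries as labelled. Drd1, the D1 dopamine receptor (ENSMUSG00000021478, chromosome 13, 54051183 to 54055705), stood at 412, 616, 594, 469.5 and 377 CPM in D1 replicates 1 to 5 and at 74.4, 60.4, 51.8, 50.3 and 55.3 CPM in D2. The lowest D1 library was 5 times or more above the highest D2 library, and the log2 difference was 3.08 ± 0.47 (adjusted p = 4.97e-05), or 3.3 without the 3 libraries. Pdyn, which encodes the dynorphin precursor (ENSMUSG00000027400, chromosome 2, 129686565 to 129699844), was at 456, 729.7, 613, 541 and 471 CPM in D1 and 32.1, 30.9, 35.1, 32.5 and 37.1 CPM in D2. The D2 libraries lay within a few CPM of each other, and the difference was 4.07 ± 0.62 with all libraries and 4.08 without 3. Tac1, the precursor of substance P (ENSMUSG00000061762, chromosome 6, 7554879 to 7565834), gave 667, 963, 906, 716 and 676 CPM in D1 and 423, 373, 149.9, 237 and 175 CPM in D2. Here D2 replicates 1 and 2 were above the other 3 D2 libraries but still below every D1 library, and the difference of 1.53 ± 0.34 became 2.13 without them and D1 replicate 1.

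Drd2, the D2 dopamine receptor (ENSMUSG00000032259, chromosome 9, 49340627 to 49408177), stood at 143, 55.8, 70.9, 130.4 and 124 CPM in D1 and 464, 468, 569.8, 489 and 525 CPM in D2. Adora2a, the adenosine A2A receptor (ENSMUSG00000020178, chromosome 10, 75316877 to 75334784), was at 293, 105, 151, 314 and 259 CPM in D1 and 1297, 1457, 1452, 1292 and 1384 CPM in D2. Penk, the enkephalin precursor (ENSMUSG00000045573, chromosome 4, 4133531 to 4138819), reached 2236, 915, 1322, 2137 and 1902 CPM in D1 and 10002, 10603, 9412, 10286 and 9653 CPM in D2. For these 3 genes every D1 library lay below every D2 library, and within D1 replicates 2 and 3 were the lowest. The differences were -2.27 ± 0.26 for Drd2, -2.62 ± 0.28 for Adora2a and -2.55 ± 0.25 for Penk (adjusted p = 1.16e-06, 2.66e-07 and 7.04e-08), and -2.46, -2.72 and -2.63 without the 3 libraries.

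**Figure D1:**
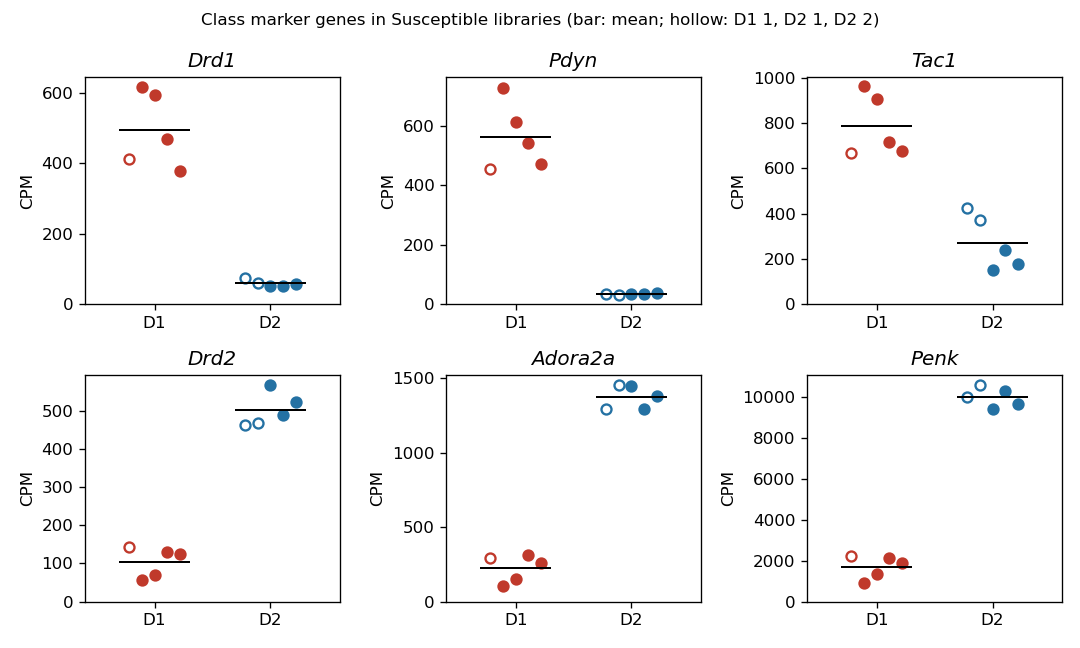
CPM of 3 D1 marker genes (upper row) and 3 D2 marker genes (lower row) in the 5 D1 and 5 D2 Susceptible libraries, 1 point per library from replicate 1 (left) to 5 (right), with a bar at the group mean and hollow points for D1 replicate 1 and D2 replicates 1 and 2. The groups do not overlap for any of the 6 genes, and Tac1 is higher in D2 replicates 1 and 2 (423 and 373 CPM) than in the other D2 libraries.

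With all libraries 4621 of 19368 genes (23.9%) were called, of which 2033 were D1 genes (10.5%) and 2588 were D2 genes (13.4%), meaning genes higher in that class. Without the 3 libraries 2076 of 20396 genes (10.2%) were called, 1011 on the D1 side (4.96%) and 1065 on the D2 side (5.22%). The genes called in the same direction by both fits numbered 1648 (8.51% of the 19368), of which 815 were D1 genes (4.21%) and 833 were D2 genes (4.3%). Their median size was 1.07 on the log2 scale, and 267 of the D1 genes and 510 of the D2 genes differed by more than 2-fold. Groups of 5 libraries did not overlap at all for 1727 genes (8.92%), with D1 above D2 for 930 (4.8%) and D2 above D1 for 797 (4.12%). The median difference over all genes tested was 0.017 with all libraries and -0.0045 without 3. A fit on these 10 libraries alone, in which the spread is not shared with the other 4 groups, called 915 of 16706 genes, 381 on the D1 side and 534 on the D2 side.

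The genes that the 3 libraries carried were mostly on the D2 side. Among genes called higher in D2, the median difference fell in size from -0.84 to -0.41 without them, and 387 came out below 0.25 of their size, 57 of these with the opposite sign. Among genes called higher in D1 it went from 0.57 to 0.38, and 43 fell below 0.25 of their size. On the D1 side the clearest case was Rn7sk, the 7SK small nuclear RNA, at 1083, 2.299, 2.15, 1.75 and 27.8 CPM in D1 and 6.72, 5.85, 1.84, 3.997 and 4.16 CPM in D2. D1 replicate 1 was by far the highest, and D1 replicate 5, which stayed in both fits, was next. The difference of 5.62 became 1.36 (adjusted p = 0.422) without the 3 libraries. Gbf1 (an exchange factor of the Golgi), Mtor (the growth kinase) and Map1a (a microtubule-associated protein) were likewise called at 0.56, 0.75 and 0.43 and stood at 0.14, 0.15 and 0.10 without the 3 libraries. On the D2 side Krt10, an epidermal keratin, gave 167, 284, 31.3, 37.03 and 30.8 CPM in D2 against 16.6 to 27.6 CPM in D1, a difference of -2.19 that became -0.35. D2 replicates 1 and 2 were also the high libraries for Eif4e3 (a cap-binding protein; 76.8, 70.3, 15.8, 19.9 and 18.9 CPM), Gab3 (a signalling adaptor; 15.2, 20.2, 3.02, 3.58 and 2.65 CPM) and Rabl6 (a GTPase-like protein; 602, 485, 203, 237 and 197 CPM), whose other 3 D2 libraries lay close to D1. Without the 3 libraries these 3 genes stood at -0.32, -0.40 and -0.17, and none was called.

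**Figure D2:**
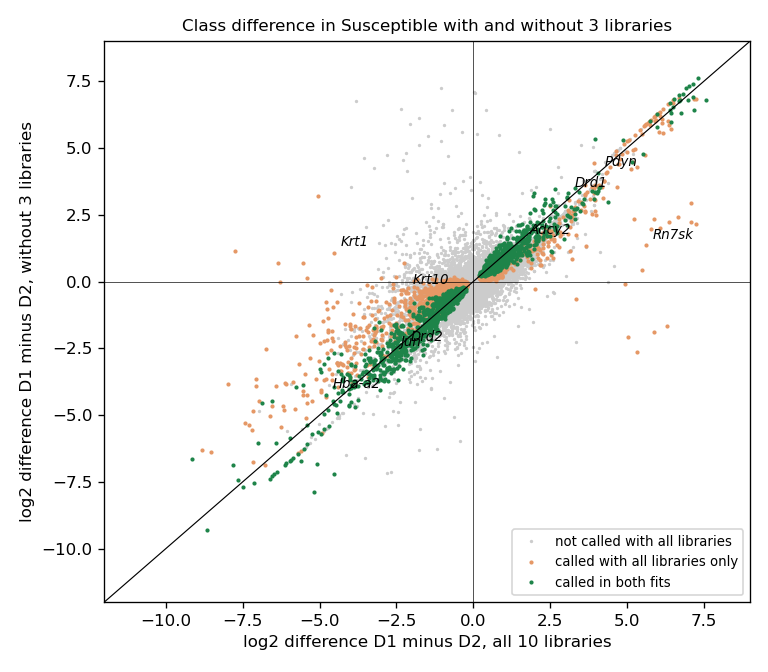
Log2 difference D1 minus D2 of each gene tested, with all 10 libraries (horizontal axis) and without D1 replicate 1 and D2 replicates 1 and 2 (vertical axis), 1 point per gene, with the diagonal marking equal values. Pdyn, Drd1, Adcy2, Drd2, Jun and Hba-a2 lie near the diagonal, whereas Rn7sk lies far below it (5.62 and 1.36), and Krt10 and Krt1 lie near the horizontal line or across it (-0.35 and 1.07 on the vertical axis). Green points were called in both fits, orange ones with all libraries only, and grey ones were not called with all libraries.

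Rankings over all genes, here and below, leave out Gm, Rik and clone symbols, mitochondrially encoded genes and symbols shared by several genes. Among the genes called in both fits, the smallest adjusted p values on the D1 side belonged to Adcy2, Disp2, Dner, Ube2ql1, Oxtr, Cnr1, Mturn and Sez6l. Adcy2 encodes an adenylyl cyclase, an enzyme that makes cAMP, and stood at 50.4, 60.3, 59.5, 59.99 and 49.9 CPM in D1 and 13.2, 18.4, 19.1, 22.04 and 18.5 CPM in D2 (chromosome 13, 68620043 to 68999541). Every D1 library was more than 2-fold above every D2 library, and the difference was 1.62 ± 0.15 (adjusted p = 1.59e-08), or 1.54 without the 3 libraries. Cnr1, the cannabinoid receptor CB1, was at 122, 146, 138, 112 and 107 CPM in D1 and 29.01, 33.7, 46.6, 40.2 and 44.2 CPM in D2. D2 replicates 1 and 2 were the lowest, and the difference was 1.69 ± 0.18 with all libraries and 1.54 without the 3. Oxtr, the oxytocin receptor, was low in both classes, with 10.9, 11.4, 11.1, 10.8 and 15.5 CPM in D1 and 1.22, 1.195, 1.96, 1.93 and 3.0 CPM in D2. D1 replicate 5 was the highest library, no D2 library exceeded 3.0 CPM, and the difference was 2.67 ± 0.27 (adjusted p = 8.51e-08). Dner, a transmembrane ligand of the Notch pathway, differed by 1.51, and Ube2ql1, of the E2 ubiquitin-conjugating family, by 1.5. Disp2 (of the Dispatched family), Mturn (maturin, a neural progenitor protein) and Sez6l (a seizure-related membrane protein) differed by 1.15, 0.97 and 1.32. For all 8 genes the groups did not overlap.

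The largest folds on the D1 side, among genes called in both fits with at least 10 CPM in D1, were those of Pdyn, Isl1, Vip, Arhgap36 and Chrm4. Isl1, the homeodomain factor that directs D1 cells in development, was at 27.8, 37.7, 36.1, 24.9 and 22.7 CPM in D1 and 0.601, 0.869, 2.16, 5.94 and 2.69 CPM in D2, where replicate 4 was the highest. Its difference was 3.59 ± 0.68 (adjusted p = 5.92e-04). Vip encodes vasoactive intestinal peptide, which interneurons make, and stood at 14.4, 15.7, 17.6, 15.9 and 19.97 CPM in D1 and 1.31, 1.18, 1.23, 1.94 and 1.96 CPM in D2. Its 5 D1 libraries were all more than 7-fold above its D2 libraries, with a difference of 3.45 ± 0.38. Arhgap36, a regulator of protein kinase A and of hedgehog signalling, was at 10.6 ± 2.07 CPM (SD, n = 5) in D1 and 1.08 ± 1.07 in D2, with no count in D2 replicate 2. Chrm4 belongs to the muscarinic receptors, described below.

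On the D2 side the smallest adjusted p values were those of Ly6a, Jun, Plxdc1, Rgs5, Apcdd1, Flt1, Pecam1 and P2ry1. Of these Ly6a (a surface antigen of endothelium), Flt1 (a VEGF receptor) and Pecam1 (an endothelial adhesion molecule) were on the endothelial list, and Rgs5 was on the list of pericytes and other mural cells. Ly6a stood at 4.16, 3.32, 3.01, 6.04 and 3.45 CPM in D1 and 36.3, 25.4, 31.7, 28.8 and 25.4 CPM in D2. The highest D1 library, replicate 4, was below every D2 library, and the difference was -2.89 ± 0.23 (adjusted p = 1.59e-09). Jun, the AP-1 transcription factor, was at 70.1, 47.7, 54.0, 97.3 and 64.99 CPM in D1 and 399.9, 351, 400.5, 404 and 439.5 CPM in D2. Its D2 libraries were within 351 to 439.5 CPM, and the difference was -2.58 ± 0.21, or -2.64 without the 3 libraries. Plxdc1, a transmembrane protein first described in tumour endothelium and included here among D2 class genes, gave 10.9 to 15.6 CPM in D1 and 32.3 to 50.3 CPM in D2, and P2ry1, an ADP receptor, gave 21.96 to 50.8 and 141 to 189 CPM. Apcdd1, an inhibitor of Wnt signalling, was at 3.799 to 6.597 CPM in D1 and 24.4 to 36.3 CPM in D2.

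Among genes called in both fits with a mean of at least 10 CPM in D2, and leaving out Gm, Rik and clone symbols, the 5 largest D2 folds were those of Rpl17-ps8 and 4 globin genes. Hba-a2 stood at 0.7102, 0.437, 0.179, 1.07 and 1.28 CPM in D1 and 26.9, 33.7, 12.3, 22.2 and 7.71 CPM in D2, and Hbb-bs at 6.29, 2.09, 3.13, 15.2 and 7.78 and 188, 128, 134, 158 and 64.4 CPM. In both genes D2 replicate 5 was the lowest D2 library and still above every D1 library. Hba-a1 and Hba-a2, and Hbb-bs and Hbb-bt, are near-identical pairs, so the split of reads within a pair is uncertain. Rpl17-ps8 is a processed pseudogene near-identical to its parent gene, and only D2 replicates 3 and 5 carried it, at 42.1 and 22.4 CPM. Its value in the other 8 libraries was at most 0.2898 CPM, so that the groups overlapped although the gene was called (-6.08 ± 1.6).

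Lists of genes by function are described next by their counts, to be read against the 10.5% and 13.4% of all genes tested that were called higher in D1 and D2 with all libraries. Counts in both fits are to be read against 4.21% and 4.3%. Of 9 genes listed for the D1 class, 7 were higher in D1 in both fits, and the list's median was 3.05 (2.7 without the 3 libraries). Besides Drd1, Pdyn, Tac1, Isl1 and Chrm4 these were Slc35d3, a transporter-like protein of intracellular membranes, at 112 ± 21.1 CPM (SD, n = 5) in D1 and 13.5 ± 1.496 in D2, and Sfxn1, a mitochondrial serine carrier, with a difference of 1.86. Eya1 and Foxp2, regulators of transcription, were not called (0.35 and -0.16), and Foxp2 stood at 0.59 without the 3 libraries. Of 9 D2 class genes analysed, 7 were higher in D2 in both fits, with a median of -1.82. Sp9, a zinc finger factor that D2 cells need to form, stood at 23.03, 11.3, 13.7, 23.7 and 24.7 CPM in D1 and 74.4, 100.5, 76.2, 66.8 and 71.4 CPM in D2. D2 replicate 2 was the highest, and the difference of -2.02 ± 0.22 was -1.95 without the 3 libraries. Gpr6, an orphan receptor of the striatum, and Upb1, an enzyme of pyrimidine breakdown, differed by -1.82 and -1.76, whereas Sh3rf2 and Grik3 were at -0.31 and -0.26 and were not called with all libraries.

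**Figure D3:**
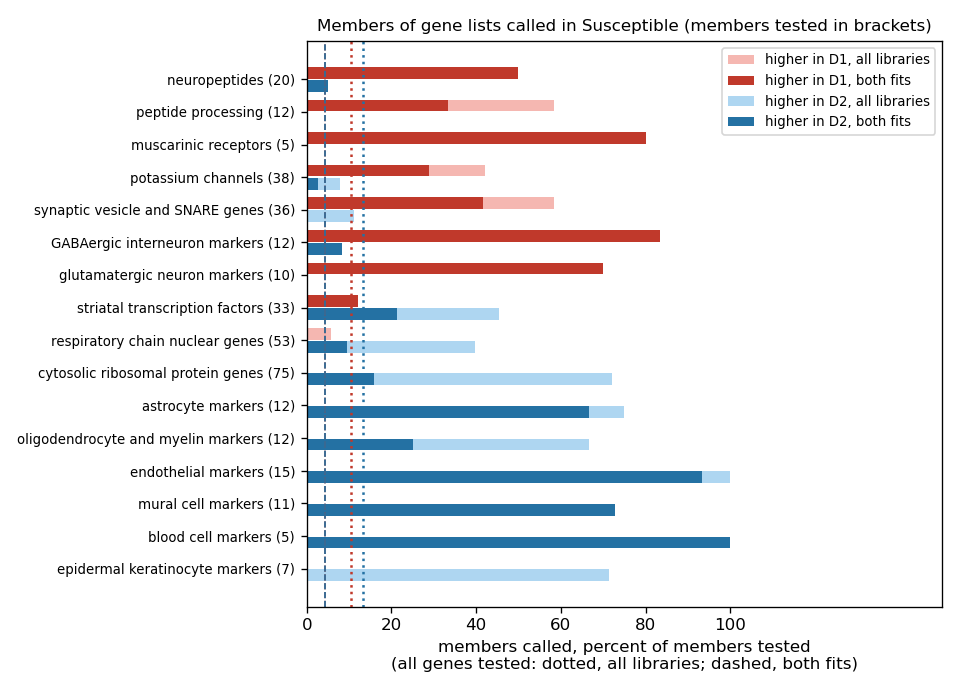
Members of 16 gene lists called higher in D1 (red) and in D2 (blue), as a percent of the members tested (number in brackets), with all libraries (pale) and in both fits (dark). Vertical lines give the share of all genes tested that was called in each direction, dotted with all libraries (10.5% and 13.4%) and dashed in both fits (4.21% and 4.3%, which nearly coincide). Peptide, muscarinic, synaptic and interneuron lists lie to the D1 side, and ribosomal, respiratory, glial and vascular lists to the D2 side, where the pale bars of ribosomal, respiratory and keratinocyte genes extend far beyond the dark ones.

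Of 20 neuropeptide genes tested, 10 were called higher in D1 and 1, Penk, in D2, in both fits alike, 9 were not called with all libraries, and the median over the list was 0.59 (1.47 without the 3 libraries). Pdyn and Tac1 are peptides of D1 cells, whereas Sst, Npy, Vip and Cck are best known from interneurons and other neurons. Sst, the somatostatin gene (chromosome 16, 23889573 to 23890958), stood at 217, 200.4, 205, 238 and 245 CPM in D1 and 46.02, 57.1, 51.2, 49.9 and 47.2 CPM in D2. The groups were 3-fold or more apart in every pair of libraries, and the difference was 2.14 ± 0.29 (adjusted p = 8.71e-06). Npy, neuropeptide Y, was at 32.1, 38.9, 40.4, 43.9 and 55.7 CPM in D1 and 10.7, 17.04, 10.2, 16.9 and 11.01 CPM in D2, and D1 replicate 5 was the highest. Tac2, the neurokinin B precursor, gave 7.51 to 12.4 CPM in D1 and 1.696 to 3.19 CPM in D2. Pnoc, the nociceptin precursor, was low, at 1.83, 3.704, 2.74, 6.45 and 4.25 CPM in D1 and 0, 0, 0.684, 0.858 and 0.721 CPM in D2, with no count in D2 replicates 1 and 2. Oprl1, the nociceptin receptor, was higher in D1 as well, at 38.1 ± 3.49 CPM (SD, n = 5) against 22.2 ± 5.74 (0.78 ± 0.13).

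Genes that store and process peptides followed the same direction with smaller differences. Of 12 tested, 7 were higher in D1 with all libraries and 4 of them in both fits, none was higher in D2, and the median was 0.30. The 4 were Scg2 and Chga, granins of the dense-core vesicle, Pcsk1, a convertase that cuts precursors, and Pam, which amidates peptides. Scg2 stood at 1011, 1248, 1188, 1053 and 958 CPM in D1 and 549.8, 579.6, 676, 758 and 809 CPM in D2 (chromosome 1, 79434669 to 79440120). Every D1 library was above every D2 library, of which replicates 1 and 2 were the lowest, and the difference was 0.70 ± 0.11 (adjusted p = 6.43e-05), or 0.58 without the 3 libraries. Chga differed by 0.60, Pcsk1 by 0.95 and Pam by 0.58 (0.32 without the 3 libraries).

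Promoter sequences were looked at for the cAMP response element, the palindrome TGACGTCA bound by the factor CREB. Dopamine moves cAMP in opposite directions through the D1 and D2 receptors, and peptide genes are textbook targets of cAMP signalling. RefSeq windows of 300 bases (250 before to 50 after the start, GRCm38.p6) matched 11 of the 14 peptide and processing genes that were higher in D1 in both fits. The full element lay in the windows of 3 of these genes, and TGACG, the shorter core within it, in those of 7, on either strand. Of all 26 listed peptide and processing genes with a window, whichever way they differed, 6 held the full element and 18 the core, so that the matches are not particular to the genes higher in D1. Penk, the peptide gene higher in D2, was not searched. Over all 32851 promoter windows the shares were 1.79% and 20.8%, among tested genes 2.78% and 28.4%. Windows of all genes higher in D1 in both fits held them in 3.13% and 26.9%, and those of genes higher in D2 in 1.98% and 21.5%. A match is a description of these letters, not a bound site. Shown are 30 bases around the full element for the 3 genes that hold it, and around the core nearest to the start for Tac1, the D1 marker with the core alone, 5′ to 3′ on the gene's strand, with each match to the core on either strand in capitals:
Sst, chr16:23890874-23890903, minus strand: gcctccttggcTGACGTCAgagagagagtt
Scg2, chr1:79440076-79440105, minus strand: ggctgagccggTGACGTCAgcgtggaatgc
Pcsk1, chr13:75089768-75089797, plus strand: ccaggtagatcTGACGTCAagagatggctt
Tac1, chr6:7555006-7555035, plus strand: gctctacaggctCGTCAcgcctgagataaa
The full element began 48 bases before the RefSeq start in Sst, 68 in Scg2 and 78 in Pcsk1, and Pcsk1 held a separate core 50 bases before it. In Tac1 the core, on the opposite strand, began 43 bases before the start. The same 4 genes stood 2.14, 0.70, 0.95 and 1.53 higher in D1 on the log2 scale. Whether the element or its core bears on these differences was not tested.

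Receptors for acetylcholine, serotonin and cannabinoids included several that were higher in D1. Of 5 muscarinic receptors 4 were higher in D1 in both fits, with a median of 1.79. Chrm4, the Gi-coupled receptor typical of D1 cells, was at 41.5, 56.8, 54.8, 52.7 and 49.3 CPM in D1 and 1.35, 0, 11.9, 3.55 and 9.34 CPM in D2, where replicate 2 had no count. Its difference was 3.28 ± 0.68, or 2.7 without the 3 libraries. Chrm2 gave 6.08 to 8.52 CPM in D1 and 1.21 to 2.62 CPM in D2, and Chrm3 26.1 ± 4.11 against 15.4 ± 3.95 (SD, n = 5) with overlapping libraries. Chrm5 had 55 counts over the 5 D1 libraries and 0 over the D2 libraries. The 95% exact counting interval of its D1 to D2 ratio began at 19.0. Of 12 serotonin receptors 3 were higher in D1 in both fits, among them Htr1a at 11.3 ± 2.93 CPM (SD, n = 5) against 4.16 ± 0.6996 and the channel subunit Htr3a at 1.83 to 3.81 against 0 to 2.12 CPM. Faah, which breaks down anandamide, was higher in D1 (1.01 ± 0.19, 0.77 without the 3 libraries). Mgll, which breaks down the other main endocannabinoid, was called higher in D2 at -0.74, but D2 replicates 1 and 2 (583 and 503 CPM) were far above the rest of D2 (272 to 344 CPM), and the call was lost without the 3 libraries (-0.34, adjusted p = 0.0556). Adora1, the inhibitory adenosine receptor, was called at -0.37 and stood at -0.0005 without the 3 libraries.

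The cAMP pathway as a whole was split. Of 27 genes 6 were called higher in D1 and 3 in D2, 3 and 2 of them in both fits, and the median was 0.099. Adcy8, a calcium-stimulated cyclase, was at 8.12, 8.13, 7.62, 8.87 and 8.03 CPM in D1 and 4.47, 2.41, 2.35, 2.08 and 2.12 CPM in D2, where replicate 1 was the highest, with a difference of 1.6 ± 0.25. Prkar1b, a regulatory subunit of protein kinase A, stood 0.67 higher in D1. Arpp19, an inhibitor of phosphatase 2A that kinases switch on, was higher in D2, at 1016 to 1120.3 CPM against 482 to 675 CPM in D1, and Pde4b, a cAMP phosphodiesterase, by a small margin (-0.27 ± 0.078). Ppp1r1b, which encodes the phosphatase inhibitor DARPP-32 of medium spiny neurons, and Gnal, the G protein subunit that couples D1 and A2A receptors to cyclase, were not called (-0.0071 and 0.28). Among 17 RGS proteins, which shorten G protein signals, 2 were higher in D2 in both fits and none in D1. These were the mural gene Rgs5 and Rgs10 (37.6 ± 6.02 CPM in D1 and 61.6 ± 11.1 in D2, SD, n = 5). Rgs7bp was called at -0.97, again with D2 replicates 1 and 2 far above the other D2 libraries (1755, 1458, 698, 829 and 761 CPM), and it stood at -0.41 without them and D1 replicate 1.

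Some glutamate receptor genes were higher in D1. Of 12 AMPA receptor genes, Gria4, Shisa6 and Cnih3 were higher in D1 in both fits and Cacng4 in D2. Gria4, a subunit of fast receptors, was at 55.2, 48.5, 53.9, 41.8 and 53.5 CPM in D1 and 22.9, 17.01, 36.1, 27.1 and 32.01 CPM in D2, a difference of 0.90 ± 0.14. Shisa6 and Cnih3, auxiliary proteins, differed by 2.03 and 0.79. Cacng4, the auxiliary protein gamma-4, was at 125, 127, 135, 122 and 108 CPM in D1 and 487, 435, 156, 215 and 181 CPM in D2, with D2 replicates 1 and 2 more than 2-fold above the other D2 libraries. Its difference was -1.26 with all libraries and -0.57 without the 3. Gria2, the subunit that blocks calcium entry, was called higher in D2 with all libraries alone (-0.56, -0.31 without the 3).

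Of 14 NMDA and kainate receptor genes, 5 were called higher in D1 and none in D2. Grin2d, typical of interneurons, was at 3.35, 2.81, 2.86, 5.71 and 4.02 CPM in D1 and 1.16, 1.05, 1.18, 0.658 and 0.809 CPM in D2, a difference of 1.95 ± 0.29. Grin3a was at 27.96 ± 2.28 CPM (SD, n = 5) against 12.1 ± 3.91 in D2, and the kainate receptor subunits Grik4 and Grik1 differed by 0.80 and 1.15. Grm8, a presynaptic metabotropic receptor, was higher in D1 (1.55 ± 0.30). Among GABA-A receptor subunits, Gabrg1 was higher in D1 in both fits (0.49), with overlapping libraries. Gabra2 was called higher in D2 at -1.15, with 1373, 1020.0, 338, 483 and 387 CPM in D2 against 231 to 374 CPM in D1. Its value rested on D2 replicates 1 and 2, and it stood at -0.35 without the 3 libraries (adjusted p = 0.39).

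Of 38 potassium channel genes, 16 were called higher in D1 and 3 in D2, 11 and 1 of them in both fits. Kcnc2 and Kcnc1 encode the fast Kv3 channels that let interneurons fire at high rates. Kcnc2 was at 40.8, 44.5, 52.1, 39.7 and 48.1 CPM in D1 and 9.17, 14.3, 6.93, 8.698 and 7.68 CPM in D2, a difference of 2.27 ± 0.27 (adjusted p = 9.74e-07), and Kcnc1 differed by 0.73. Kcnj9, a subunit of the G protein-gated Kir3 channel, and Kcnk9, a leak channel, were 0.64 and 0.96 higher in D1. Kcnk2, the leak channel TREK-1, was the gene higher in D2 in both fits, at 155, 166, 164, 178 and 138 CPM in D1 and 449, 436, 284, 293 and 284 CPM in D2. Its difference was -1.12 ± 0.12, or -0.82 without the 3 libraries. D2 replicates 1 and 2 were the highest, and every D2 library was above every D1 library. Among sodium channel subunits Scn1a and Scn3b were higher in D1 in both fits (0.59 and 0.55), and among calcium channel subunits Cacna1g, a T-type channel, was at 15.5 ± 1.96 CPM (SD, n = 5) in D1 and 6.9 ± 3.52 in D2.

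Transcription factor genes of the striatum leaned to D2. Of 33 tested, 15 were called higher in D2 and 4 in D1, and in both fits these numbers were 7 and 4, with a median of -0.38 that moved to -0.10 without the 3 libraries. Six3 and Sp9 act in the making of D2 cells, and Foxp1 and Dlx6 in medium spiny neurons and striatal GABA neurons at large. Six3 stood at 116, 116, 109, 114 and 119 CPM in D1 and 306, 301, 186, 217 and 192 CPM in D2. The other 3 D2 libraries were below replicates 1 and 2 and still above all of D1, and the difference was -1.06 ± 0.11, or -0.78 without the 3 libraries. Foxp1 gave 2506, 2348, 797, 1104 and 897 CPM in D2 against 478 to 583 CPM in D1, a difference of -1.52 that became -0.82, and Dlx6 went from -1.04 to -0.73. On the D1 side, besides Isl1, were Nr4a2, an orphan nuclear receptor, at 26.8, 66.6, 57.9, 51.1 and 46.1 CPM in D1 and 8.48, 15.3, 9.32, 14.4 and 11.6 CPM in D2, and the interneuron factors Lhx6 and Nkx2-1. Lhx6 was at 10.8, 2.3, 2.49, 3.001 and 3.24 CPM in D2, where replicate 1 alone was within the range of D1 (9.33 to 13.7 CPM).

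Of 21 immediate early genes, which activity switches on within minutes, 5 were called higher in D1 and 3 in D2. Nr4a2, Nr4a3 and Bdnf were higher in D1 in both fits, at 2.08, 0.99 and 1.19. Fos was called higher in D1 with all libraries (0.92 ± 0.27, adjusted p = 0.0136) and not without the 3 (0.78, adjusted p = 0.178). Arc and Fosb were not called (0.64 and 0.20). Jun was the gene higher in D2 in both fits. Jund was called at -3.01, but its D2 value was 135 CPM in replicate 1 and 2.71 to 8.22 CPM in the others, and without the 3 libraries the sign turned (0.12, adjusted p = 0.966).

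Axon guidance and adhesion genes held members of both directions. Of 40 guidance genes, 12 were called higher in D1 and 6 in D2, 7 and 1 of them in both fits. Nrp2, a semaphorin receptor, was at 64.8, 51.3, 52.5, 41.5 and 53.3 CPM in D1 and 17.2, 28.9, 26.9, 26.1 and 27.7 CPM in D2, with a difference of 1.05 ± 0.14. Plxna1 and Plxnc1, plexins that signal for semaphorins, and Slit1, a repellent ligand, differed by 1.47, 0.76 and 1.3. Unc5d, a netrin receptor, was higher in D2, at -1.07 with all libraries and -0.63 without the 3. Of 22 cadherin genes 5 were higher in D1 in both fits and none in D2, among them Pcdh20, Cdh18 and Cdh13 (1.06, 1.01 and 0.88). Cntnap4, an adhesion protein of interneuron terminals, was at 15.3 ± 2.53 CPM (SD, n = 5) in D1 and 4.24 ± 1.45 in D2.

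Synaptic vesicle genes leaned to D1. Of 36 tested, 21 were called higher in D1 and 4 in D2, 15 and none of them in both fits, and the median was 0.36 (0.28 without the 3 libraries). Rab3b, a vesicle GTPase, stood at 82.7, 109, 95.96, 106 and 108 CPM in D1 and 42.97, 43.2, 47.5, 60.5 and 48.1 CPM in D2, a difference of 1.05 ± 0.13. Stx1a, a SNARE of the plasma membrane, gave 68.7, 104, 100.2, 124 and 97.7 CPM in D1 and 21.5, 26.9, 57.6, 50.03 and 56.9 CPM in D2. Replicates 1 and 2 were the lowest in D2, and the difference of 1.22 was 0.96 without the 3 libraries. Vamp1, the vesicle SNARE of fast-firing neurons, and Rims3, of the active zone, differed by 1.1 and 0.62. Gad1, an enzyme that makes GABA, was not called (0.11).

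Genes of the ribosome and of the respiratory chain leaned to D2, and most of their calls were lost without the 3 libraries. Of 75 cytosolic ribosomal protein genes 54 were called higher in D2 and none in D1, with 12 in both fits, and the median moved from -0.38 to -0.25. Their summed level was 8989.7, 9244, 9639, 10519 and 9065 CPM in D1 and 13863, 14468, 9972, 12448 and 10778 CPM in D2. D2 replicates 1 and 2 were the highest, and D2 replicate 3 was within the range of D1. Rpl19 was at 78.2, 78.5, 79.3, 87.95 and 103 CPM in D1 and 139, 142, 101, 151 and 124 CPM in D2 (-0.62, -0.51 without the 3 libraries), and Rpl38 and Rps29 differed by -0.84 and -0.89. Many ribosomal protein genes have processed pseudogenes that can take their reads. Rpl22, whose tagged form the pull-down uses, was called at -0.33 with all libraries and stood at -0.061 without the 3.

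Of 53 nuclear genes of the respiratory chain 21 were called higher in D2 and 3 in D1, and 5 and none in both fits. Ndufb3, of complex I, was at 133, 130.2, 131, 131 and 136 CPM in D1 and 222, 244, 147, 198 and 166 CPM in D2, a difference of -0.56 ± 0.10, or -0.36 without the 3 libraries. Atp5l, of ATP synthase, went from -0.81 to -0.35. Cyc1, of complex III, was called higher in D1 at 0.48, with D2 replicates 1 and 2 (74.3 and 76.5 CPM) below all other libraries, and it stood at 0.22 without the 3.

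Markers of cells other than medium spiny neurons moved with the class. On the D2 side were vessels, blood and glia. All 15 endothelial markers were called higher in D2, 14 of them in both fits, with a median of -2.66, and their summed level was 114, 76.7, 66.1, 109 and 82.8 CPM in D1 and 515, 369.8, 453, 422 and 375 CPM in D2. Flt1 stood at 13.2, 5.74, 4.62, 8.66 and 8.29 CPM in D1 and 141, 109.9, 69.5, 78.9 and 64.9 CPM in D2, and Ly6c1, another endothelial antigen, differed by -2.53. Of 11 mural markers 8 were higher in D2 in both fits, with Kcnj8, a pericyte channel, at 0.209 to 1.22 CPM in D1 and 3.69 to 7.93 CPM in D2 and Vtn, vitronectin, at 1.33 to 12.2 and 29.1 to 83.5 CPM. All 5 blood genes were higher in D2 in both fits, summing to 3.78 to 20.9 CPM in D1 and 99.1 to 280.1 CPM in D2. These differences were as large or larger without the 3 libraries for endothelial and mural genes (medians -2.95 and -2.79).

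Of 12 astrocyte markers 9 were higher in D2 and 8 in both fits, with sums of 696, 399.7, 401, 399 and 619 CPM in D1 and 776, 650.4, 672, 687 and 653 CPM in D2. D1 replicate 1 lay inside the range of D2, D1 replicate 5 was just under it, and the other 3 D1 libraries were well below. Sox9, an astrocyte transcription factor, was at 6.697, 3.19, 3.704, 3.81 and 6.02 CPM in D1 and 53.4, 27.6, 12.5, 19.1 and 12.8 CPM in D2, and the gap junction genes Gja1 and Gjb6 differed by -1.79 and -1.36. Oligodendrocyte markers gave 8 of 12 higher in D2 and 3 in both fits. Mal, a protein of myelin membranes, was at 25.97, 15.8, 13.9, 20.3 and 19.8 CPM in D1 and 29.9, 25.9, 43.9, 31.5 and 32.6 CPM in D2, a difference of -0.79 that became -1.04. Of 7 oligodendrocyte precursor markers 2, Cspg4 and Pdgfra (-2.03 and -1.15), were higher in D2 in both fits, and of 12 microglia and macrophage markers 1, Mrc1 (-3.4). Of 7 fibroblast and meningeal markers 4 were, among them Dcn and Col1a2 (-2.53 and -1.9). The microglial markers Cx3cr1 and P2ry12 were not called (-1.02 and -0.39).

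Keratinocyte genes were high in D2 replicates 1 and 2. Krt1 was at 1.72, 2.28, 2.11, 4.598 and 2.88 CPM in D1 and 129.9, 189, 0.474, 2.79 and 0.971 CPM in D2, and Krt2 at 26.4 and 80.3 CPM in D2 replicates 1 and 2 and at most 0.2201 CPM in the other 8. Krt1, Krt2 and Krt10, with Sfn and Dsp, were the 5 of 7 tested that were called higher in D2, and none was called without the 3 libraries, where Krt1 and Krt2 turned sign (1.07 and 1.16). Xist, the RNA of the inactive X chromosome, was at 50.2, 12.5, 14.2, 11.5 and 33.5 CPM in D1 and 104, 82.2, 48.9, 98.3 and 36.2 CPM in D2 and was called higher in D2 (-1.63 ± 0.45, adjusted p = 0.0105).

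On the D1 side were markers of other neurons. Of 12 interneuron markers 10 were higher in D1 and 1, Th, in D2, in both fits alike, with a median of 1.72. Their sum was 490.1, 491, 488, 543 and 579 CPM in D1 and 163, 180.0, 166, 213 and 164 CPM in D2, with no overlap. Sst, Npy, Vip, Cck, Lhx6 and Htr3a, named above, are among them. Kit, a growth factor receptor of interneurons, was at 19.9, 17.8, 15.6, 17.9 and 13.0 CPM in D1 and 3.59, 2.81, 4.35, 6.16 and 2.82 CPM in D2 (2.09 ± 0.25), and Pvalb, parvalbumin, differed by 2.66. Th, tyrosine hydroxylase, was at 8.62, 3.72, 3.33, 4.62 and 7.34 CPM in D1 and 2.43, 10.8, 12.04, 13.7 and 12.3 CPM in D2, where replicate 1 was the lowest of all libraries. Of 10 markers of glutamatergic neurons, a cell type of the cortex near the punch, 7 were higher in D1 in both fits. Slc17a7, the vesicular glutamate transporter VGLUT1, was at 384, 585, 540.5, 632 and 588 CPM in D1 and 225, 106, 241, 275 and 221 CPM in D2, a difference of 1.35 ± 0.22, and Neurod6, a factor of cortical projection neurons, differed by 1.63. Cholinergic markers were low, with sums of 7.81 to 23.5 CPM in D1 and 3.11 to 6.03 CPM in D2, and 3 of 7, among them Ecel1 (2.03), were called higher in D1 with all libraries and none in both fits. Whether such cells account for any of the class differences in peptide, channel, receptor and synaptic genes above was not tested.

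**Figure D4:**
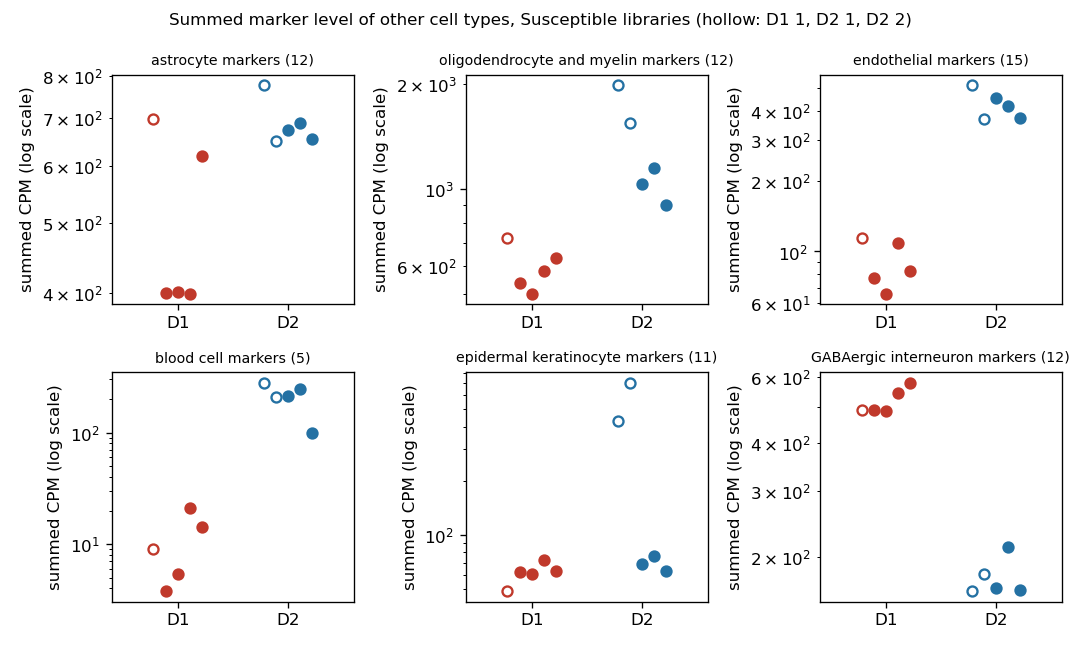
Summed CPM of marker genes of 6 other cell types in the 5 D1 and 5 D2 Susceptible libraries, on log axes, 1 point per library from replicate 1 (left) to 5 (right), with hollow points for D1 replicate 1 and D2 replicates 1 and 2 and the number of genes summed in brackets, low ones included. Endothelial and blood sums are higher in every D2 library and interneuron sums in every D1 library, whereas keratinocyte sums exceed 100 CPM in D2 replicates 1 and 2 alone (430.0 and 703 CPM).

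The class differences of Susceptible mice were then set beside those of Control and Resilient mice, which come from other libraries. With all 30 libraries in the fit, 1608 genes were called in Control (8.3%) and 1288 in Resilient (6.65%), against 4621 in Susceptible. Susceptible also had the most calls in DESeq2 (5406, against 2061 in Control and 1594 in Resilient). It had the fewest without the 3 libraries, at 2076, against 3247 in Control and 2315 in Resilient. When each condition was fitted on its own 10 libraries, Control had 2696 calls, Resilient 2184 and Susceptible 915. The overlaps that follow use the calls with all 30 libraries in Control and Resilient. Of the 815 genes higher in D1 in both Susceptible fits, 807 had the same sign in Control and 794 in Resilient, and 454 and 386 were called there (55.7% and 47.4%). Of the 833 genes higher in D2, 829 and 812 had the same sign and 531 and 534 were called (63.7% and 64.1%). Seen from the other side, 66.9% of the 679 genes called higher in D1 in Control and 57.2% of the 929 called higher in D2 were among them. A core of 315 D1 genes and 430 D2 genes was called in Control, in Resilient and in both Susceptible fits. The D1 genes of this core had medians of 0.90 in Susceptible without the 3 libraries, 0.77 in Control and 0.78 in Resilient. The D2 genes had medians of -2.02 in Susceptible without the 3 libraries, -1.93 in Control and -2.15 in Resilient.

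**Figure D5:**
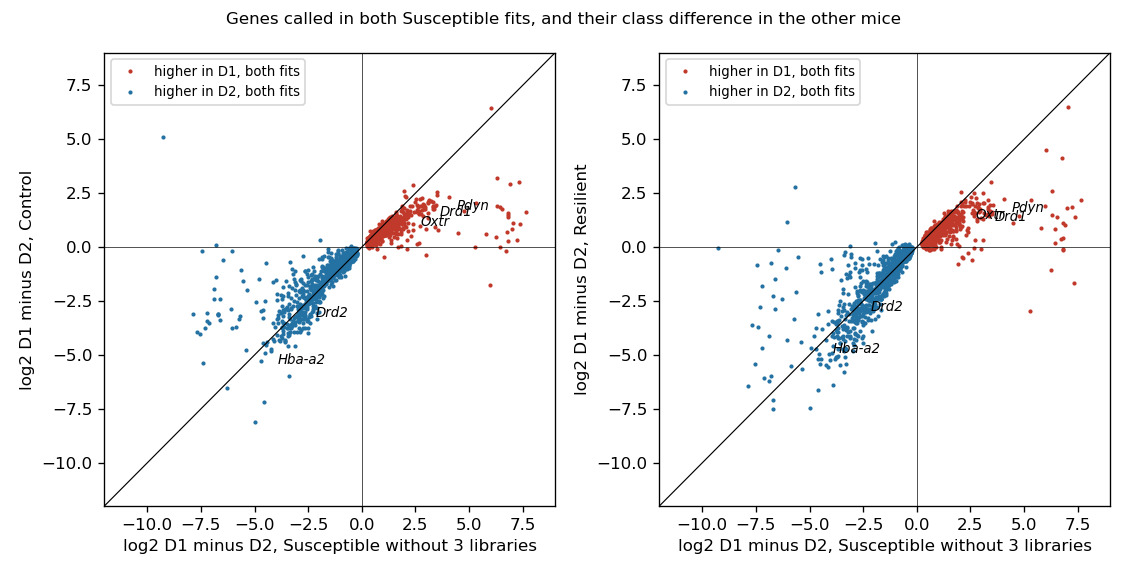
Log2 difference D1 minus D2 in Control (left) and Resilient (right) against that in Susceptible without 3 libraries, for the 1648 genes called in both Susceptible fits, 1 point per gene, with the diagonal marking equal values. Pdyn and Drd1 lie below the diagonal, and Drd2 lies close to it (-2.46 in Susceptible without the 3 libraries, -2.6 in Control and -2.35 in Resilient).

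Whether a class difference itself differed between conditions was tested as an interaction, and the calls depended on the tool and on 1 library. The interaction of class with Susceptible against Control called 0 of 19368 genes (0%) in edgeR and 5 in DESeq2, with 1509 at an unadjusted p under 0.05 and a smallest adjusted p of 0.526. Against Resilient it called 0 genes (0%) in edgeR, 156 in edgeR without D2 Susceptible replicate 3, and 47 in DESeq2 with all libraries, while edgeR with all libraries gave 2404 at an unadjusted p under 0.05 and a smallest adjusted p of 0.192. Drd1 and Pdyn had larger fitted differences in Susceptible than in Control, by 1.01 and 1.74 (unadjusted p = 0.11 and 0.0355, adjusted p = 0.669 and 0.637, edgeR), and replicate 5 of D2 Control and of D2 Resilient was the highest D2 library of its condition in both genes. Drd1 stood at 247 CPM in D2 Control replicate 5 and 414 CPM in D2 Resilient replicate 5, above the D2 medians of 71.6 and 66.9 CPM, and Penk was lowest in the same libraries (6085 and 4038 CPM). The Drd1 difference was 2.07 in Control and 1.85 in Resilient, and 2.54 and 2.84 without those libraries, beside 3.08 in Susceptible. D2 Control replicate 3 was also high, at 147 CPM for Drd1 and 155 CPM for Pdyn, and without it alone the Control differences were 2.17 and 2.47. The Pdyn difference was 2.33 in Control and 2.23 in Resilient, and 2.97 and 3.57 without replicate 5, beside 4.07.

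Vip and Oxtr had class differences of 1.89 and 1.6 in Control, 1.56 and 1.07 less than in Susceptible (unadjusted p = 0.00335 and 0.00646, adjusted p = 0.637 and 0.637). Without D2 Control replicate 5 these interaction values were 0.94 and 0.79. Drd2, Adora2a and Penk differed by -2.6, -2.99 and -2.7 in Control and -2.35, -2.57 and -2.43 in Resilient. Without D2 replicate 5 of the same condition they differed by -2.71, -3.11 and -2.78 in Control and -2.5, -2.72 and -2.58 in Resilient. D1 Control replicate 1 was the highest D1 Control library for these 3 genes (125, 238 and 1811 CPM), and without it the Control differences were -2.86, -3.21 and -2.835. The smallest interaction p values against Control on the D1 side belonged to Mustn1, Pskh1, Lpo and Slc9a4, none of which passed adjustment. Mustn1, a small musculoskeletal protein, had 88 counts over the D1 Susceptible libraries and 1 over D2, a ratio of 116 with a 95% exact counting interval of 20.3 to 4637. Slc9a4, a sodium-proton exchanger, had 63 and 0 counts, and its 95% exact counting interval began at a ratio of 21.9. Lpo, lactoperoxidase, had 20 counts and 1, while Pskh1, a serine kinase, was at 6.07 ± 1.44 CPM (SD, n = 5) in D1 and 4.03 ± 0.867 in D2 and stood -0.38 in Control. On the D2 side were Krt1, Gpr137b-ps, Fam25c and Taf1b. Gpr137b-ps, a pseudogene, was highest in D2 replicates 1 and 2 (16.3, 8.603, 3.05, 3.84 and 3.71 CPM), as Krt1 was. Fam25c had 230 counts in D2, with 3.64 CPM in replicate 2 and at most 0.2297 CPM elsewhere. Taf1b, of the RNA polymerase I machinery, was not called in Susceptible (-0.23) and was 0.41 in Control.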

How the data were processed

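Read counts per gene were taken as the authors deposited them, in a table of 30 libraries and 55335 genes (55154 with a symbol in GENCODE M21, GRCm38, the source of coordinates). Per the submitters' processing notes, HISAT2, HTSeq and GRCm38 (mm10) were used, with no version or strand setting named there. Per the labels' protocols, 10 ng of RNA with an integrity number above 8 went into SMART-Seq v4 libraries. The 5 summary lines of reads not assigned to a gene were left out of library sizes. Together they made up 10.3% to 53.3% of the 10 libraries. The line of reads in no gene alone made up 5.33% to 41.2%.

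Genes were kept by filterByExpr (minimum count 10, minimum total 15), which left 19368 and set 35967 aside. edgeR 4.0.16 in R 4.3.3 (TMM, robust quasi-likelihood) fitted all 30 libraries as 6 groups with 1 shared spread, and p-values were adjusted over all genes tested. The common dispersion, which is the square of the biological variation between libraries, came to 0.172, and to 0.1005 without D1 Susceptible replicate 1 and D2 Susceptible replicates 1 and 2. SE is the size of the log2 difference divided by the root of F. A level of 0 allows up to 3 counts, or 0.0456 to 0.103 CPM by library when library sizes are not adjusted by TMM. Counting intervals and this limit cover counting error only. Alternatives were DESeq2 1.42.0, its size factors, no filter, only the groups compared, a replicate block, voom with sample weights (limma 3.58.1), Gm42418 and mitochondrially encoded genes left out, and libraries left out.

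Genes named are the 6 class markers and the check genes, the 8 with the smallest adjusted p and the 5 with the largest fold in each direction among those called in both fits, up to 4 a direction per list, the 4 a direction with the smallest interaction p, and 4 a direction whose difference shrank below 0.25 of its size without the 3 libraries. Rankings over all genes left out Gm, Rik and clone symbols, mitochondrially encoded genes and symbols shared by several genes. Other list members that are named and the promoter windows were chosen after their values were seen. The members and lists were chosen with earlier results of these data known. Replicate numbers do not pair libraries by any label: same-number D1 and D2 deviations correlated at -0.040 to 0.037. Each library is a separate pool of mice, so p-values measure the spread between pools. Genes on opposite strands that overlap cannot be told apart without the strand setting.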

Additional observations from a re-analysis of the deposited data

Results flagged for a closer look

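In each group of 5 libraries, a value was picked out where the highest or lowest library stood further from its neighbour than 0.71 of the group's range (Dixon's test at 95%). Of 326 groups of values checked, 26 were picked out. The chance rate of about 1 in 20 is no yardstick for this number. Some of the genes were named because their difference shrank without the 3 libraries, and a lone count in a group is always picked out. D1 replicate 1 was the highest for Rn7sk (1083 CPM), Mtor (113 CPM), Unc5d (37.5 CPM), the share of reads in no gene (41.2%) and the share in Gm42418 (54.9%), and the lowest for Rpl22 (42.8 CPM). D1 replicate 5 was the highest for Oxtr (15.5 CPM), Tac2 (12.4 CPM) and Pskh1 (8.64 CPM) and the lowest for Mgll (199 CPM) and Dlx6 (54.3 CPM). D1 replicate 4 was the highest for Fam25c (0.0619 CPM), which had no count in the other D1 libraries.

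In D2, replicate 1 was the highest for Jund (135 CPM), Gabrg1 (33.0 CPM), Taf1b (31.4 CPM), Lhx6 (10.8 CPM) and Adcy8 (4.47 CPM) and the lowest for Nrp2 (17.2 CPM) and Th (2.43 CPM). Replicate 2 was the highest for Rpl22 (107 CPM), Sp9 (100.5 CPM), Kcnj9 (60.7 CPM) and Fam25c (3.64 CPM). Replicate 3 held the lone count of Mustn1 (0.0175 CPM), replicate 4 that of Lpo (0.0153 CPM), and replicate 5 had the highest share of counts in mitochondrially encoded genes (1.70%). Lhx6, Gabrg1 and Th thus had D2 replicate 1 on the D1 side, and their differences without the 3 libraries were 2.12, 0.71 and -1.41, each further from 0 than with all libraries (1.47, 0.49 and -0.92).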

How the results depend on the processing

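The 4621 calls in Susceptible mice fell to 915 in a fit of only the groups compared (913 shared), to 2076 without the 3 libraries (1648 shared) and to 2123 without D2 Susceptible replicates 1 and 2, and leaving out 1 library at a time gave 3508 to 6218. A fit with only the groups compared estimates the spread from these 10 libraries alone, and it also filters and normalizes them anew (16706 genes tested). The cause of these changes in the number of calls was not tested. DESeq2 called 5406, its size factors 4753, no filter 4098, voom 3295, the fit without Gm42418 and mitochondrially encoded genes 4665, and the replicate block 4173. The replicate numbers share no label beyond the number, 1 of 5 D1 libraries correlated best with its own number, and the block moved no count of calls by over 1.5 times. In Control (1608) the calls were 2696 with only the groups compared, 5491 with voom, 3247 without the 3 libraries, 3134 without the 2, and 981 to 1794 with 1 library left out, the 981 where D1 Control replicate 3 and 1055 where D2 Control replicate 4 was absent. In Resilient (1288) they were 2184, 3416, 2315, 2305 and 960 to 1453. The interaction with Control called 0 except in DESeq2 (5), and 0 with each library left out. That with Resilient called 0 except in DESeq2 (47), without D2 Susceptible replicates 1 and 2 (1) and without D2 Susceptible replicate 3 (156), so 0 to 156 with 1 library left out.

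Of 158 genes refitted under 19 settings, 150 kept their sign and 104 also their side of the threshold in each setting. Without the 3 libraries 22 kept their sign and lost their call, and 6 others changed sign. Among these 6, Jund, Krt1, Krt2 and Dsp lost their call as well. With only the groups compared 36 of 151 lost their call. Signs turned with voom for Rn7sk (-0.056), Jund (0.073), Krt1 (1.05), Krt2 (1.59), Taf1b (0.067) and Foxp2 (0.70). Without the 3 libraries they turned for Jund (0.12), Krt1 (1.07), Krt2 (1.16), Taf1b (0.0033), Dsp (0.68) and Foxp2 (0.59), and without the 2 for Jund (0.23), Krt1 (0.99), Krt2 (0.97), Dsp (0.90) and Foxp2 (0.67). Foxp2 was -0.32 to 0.26 with 1 library left out. Ppp1r1b was 0.013 with no filter, 0.0020 with the replicate block and -0.12 to 0.14 with 1 library left out. Depth limits genes near the 3-count floor, such as Mustn1, Lpo, Fam25c, Chrm5 and Slc9a4, whose folds rest on few counts.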

Other observations

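Markers of other cells were also set beside each other in the libraries of the other mice. Endothelial sums were 66.4 to 96.8 CPM in D1 Control and 304 to 477 CPM in D2 Control, and 62.4 to 70.3 and 160.3 to 411 CPM in Resilient. Interneuron sums were 529.5 to 686 CPM in D1 Control and 207 to 479.9 CPM in D2 Control, and 516 to 665 and 162 to 299.6 CPM in Resilient. Of the 15 endothelial genes 14 were called higher in D2 in Control and 14 in Resilient, and of the 12 interneuron genes 7 and 7 were called higher in D1. Keratinocyte sums were 59.3 to 78.2 CPM in D2 Control and 53.6 to 76.3 CPM in D2 Resilient. Of the 75 ribosomal protein genes 32 were called higher in D2 in Control and 0 in Resilient. These counts are to be read against all 19368 genes tested. Of those, 679 were called higher in D1 and 929 in D2 in Control, and 532 and 756 in Resilient.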
